A study of Mus musculus with 18 samples.

Results

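The aquaporins are a family of membrane channels that let water, and in some members glycerol, pass through cell membranes. The genes listed for the kidney were Aqp1, Aqp2, Aqp3, Aqp4, Aqp6, Aqp7, Aqp8 and Aqp11. Every probe set that the platform annotation paired with 1 of these 8 symbols alone was taken, which gave 10 of the 22626 probe sets of the array, for 6 of the 8 listed genes and of the 12393 genes measured. Aqp3 had 3 probe sets, Aqp4 and Aqp7 had 2 each, and Aqp1, Aqp2 and Aqp8 had 1 each. Aqp6 and Aqp11 had no such probe set and were not analysed here. The rule that takes probe sets uses no measured value, but the genes were listed with earlier results of these data known.

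The kidneys came from C57BL/6 mice that were wild type (WT), TIMP2-/- or TIMP3-/-, that is, without 1 of 2 tissue inhibitors of metalloproteinases. In unilateral ureteral obstruction (UUO) the right ureter was tied off near the kidney, and sham mice had the same surgery with no ligature. Each of the 6 groups (WT sham, WT UUO, TIMP2-/- sham, TIMP2-/- UUO, TIMP3-/- sham and TIMP3-/- UUO) held 3 Mouse430A_2 arrays of RNA from the kidney on the operated side, 18 arrays in all, and the source labels of the UUO arrays give 3 days after the operation. The labels call the samples biological replicates, give no age, and do not say in which cells each TIMP gene was deleted or whether an array held 1 animal.

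Water follows its gradient through aquaporins at both ends of the nephron. Aqp1 carries most of the water that the proximal tubule and the thin descending limb take back. In the collecting duct, vasopressin acts through its V2 receptor and cyclic AMP to bring Aqp2 to the apical membrane of principal cells and to raise its transcription, while Aqp3 and Aqp4 let the water leave on the basolateral side. Loss of collecting duct aquaporins is a known feature of the obstructed kidney, which cannot concentrate urine.

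The sequences just upstream of 3 of these genes are shown because Aqp2 and Aqp3 belong to the collecting duct and Aqp1 to the proximal tubule, and all 3 were lower after UUO in at least the 2 knockouts. They are the 250 bases before the annotated start in RefSeq (GRCm38.p6). They lie at chr6:55336049-55336298 (plus strand) for Aqp1, chr15:99578806-99579055 (plus strand) for Aqp2 and chr4:41098184-41098433 (minus strand) for Aqp3. Each is written from 5′ to 3′ on the gene's own strand, and capitals mark matches to the motifs searched other than the CACCC box.
Aqp1: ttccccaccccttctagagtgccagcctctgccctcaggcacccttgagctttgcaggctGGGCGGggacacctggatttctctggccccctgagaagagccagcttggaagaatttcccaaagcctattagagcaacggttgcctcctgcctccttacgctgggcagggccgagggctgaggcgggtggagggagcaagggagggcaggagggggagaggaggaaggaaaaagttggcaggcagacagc
Aqp2: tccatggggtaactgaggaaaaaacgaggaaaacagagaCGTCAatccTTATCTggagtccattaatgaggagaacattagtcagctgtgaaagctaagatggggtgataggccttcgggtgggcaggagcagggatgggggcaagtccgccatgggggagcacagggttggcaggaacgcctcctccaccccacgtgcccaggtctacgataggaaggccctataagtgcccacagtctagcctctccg
Aqp3: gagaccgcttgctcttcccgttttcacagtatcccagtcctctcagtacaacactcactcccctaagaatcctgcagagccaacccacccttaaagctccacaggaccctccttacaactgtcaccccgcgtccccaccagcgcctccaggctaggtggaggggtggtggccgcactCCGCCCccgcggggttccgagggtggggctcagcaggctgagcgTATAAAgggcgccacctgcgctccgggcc

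The motifs were searched on both strands of windows that also held the first 50 bases of the gene. In Aqp2 the capitals are a TGACG motif (part of the cyclic AMP response element TGACGTCA) read on the opposite strand, that begins 211 bases before the start, and a GATA site, AGATAA read on the opposite strand, 202 bases before it. TGACG occurred in 20.8% of the 32851 RefSeq promoter windows of the same length and the GATA site in 11.2%. The full element TGACGTCA occurred in 1.79% of windows and in none of the 6 aquaporin windows searched. An AP-1 site (TGANTCA, in 7.81% of windows), an NF-kappaB site (1.47%), an HNF1 motif (GTTAAT, 7.1%) and a tonicity element core (TGGAAA, 21.4%) were not matched in these 3 windows. Among the other windows searched, that of Aqp8 held the NF-kappaB site 167 bases before the start. In Aqp7, 1 window held the tonicity element core (234 bases before) and the GATA site (132 bases before). In Aqp3 the capitals are a GC box (GGGCGG read on the opposite strand, in 35.7% of windows) 73 bases before the start and a TATA box (TATAAA, in 13.6%) 29 bases before it. Aqp1 held a GC box 190 bases before the start, and neither Aqp1 nor Aqp2 held TATAAA. The short motif CACCC, found in 57.5% of windows, occurred 3 times in Aqp1, 3 times in Aqp2 and 4 times in Aqp3. A match is a description of the letters and says nothing of binding. Of the 8 genes 7 had an entry, and Aqp4 had none. In the RefSeq gene order Aqp5 lies between Aqp2 and Aqp6, and Aqp7 lies next to Aqp3.

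The targeted genes were low where the labels say so. The Timp3 intensity was 35.14 to 60.81 on the 6 TIMP3-/- arrays, against 3171 to 9040 on the WT and TIMP2-/- arrays. Timp2 reached 571 to 681 in TIMP2-/- sham and 742 to 897 in TIMP2-/- UUO, against 971 to 5304 elsewhere, so a signal remained there. On the first principal component of all probe sets (64.8% of the variance) every UUO array lay at or below -2.36 and every sham array at or above 27.2. Some arrays stood apart in other ways. WT UUO 2 had an intensity of 28106 for Alb, the albumin gene of hepatocytes, against 54 to 933 on the other 17 arrays. WT sham 3 (81.4) and TIMP3-/- UUO 2 (55.2) had the highest scores on the second component, with the other arrays between -44.5 and 30.7. These 3 are called the doubted arrays, and aquaporin calls that change without them are given both ways. TIMP2-/- UUO 3 had the lowest score on the second component and was the UUO array nearest to sham on the first (-2.36). It is not among the doubted arrays, and results that change without it are given as for any single array.

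UUO against sham within a genotype shows what 3 days of obstruction did to the aquaporin transcripts. All 10 probe sets had a lower mean after UUO in each of the 3 genotypes. Differences are log2 UUO minus log2 sham, tested with limma across all 22626 probe sets, and a probe set passed at a Benjamini-Hochberg adjusted p under 0.05. In WT, 5 of 10 probe sets, for 4 genes, were lower, against 16.1% of all probe sets called lower. In TIMP2-/- mice 8 of 10, for 5 genes, were lower against 20.9%, and in TIMP3-/- mice 9 of 10, for all 6 genes, against 37.5%. None was higher in any genotype, where 14.7%, 14.1% and 25% of all probe sets were. Lower in all 3 genotypes were 3 of 10, from Aqp1, Aqp3 and Aqp7, against 10.1% of all probe sets. The median difference over the 10 probe sets was -0.74 in WT, -1.09 in TIMP2-/- and -1.83 in TIMP3-/-, beside medians of -0.12, -0.12 and -0.18 over all probe sets. The 3 Aqp3 probe sets read 1 gene, as do the pairs for Aqp4 and Aqp7, so probe sets are not independent.

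The arrays of the groups did not overlap for 3 of the 10 probe sets in WT (28.6% of all probe sets were lower without overlap), for 9 in TIMP2-/- (32.3%) and for 10 in TIMP3-/- (38.9%). Over all genotypes, all 9 UUO arrays lay below all 9 sham arrays for 1 of the 10, an Aqp3 probe set, against 9.34% of all probe sets. The number of aquaporin probe sets that passed at the adjusted p threshold, as opposed to those without overlap, rested on single arrays in WT. It was 0 without WT UUO 1, WT UUO 2 or WT sham 2, 2 without WT sham 1, 3 without WT sham 3, 8 without WT UUO 3 and 2 without the 3 doubted arrays. In TIMP2-/- it was 3 without TIMP2-/- UUO 1 or TIMP2-/- UUO 2, 5 without TIMP2-/- sham 2 or TIMP2-/- sham 3, and 8 without the 3 doubted arrays. In TIMP3-/- it was 9 whichever of its 6 arrays was left out, and without the 3 doubted arrays. Less RNA of a gene per cell and fewer cells of the type that makes it cannot be told apart in whole kidney.

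**Figure D1:**
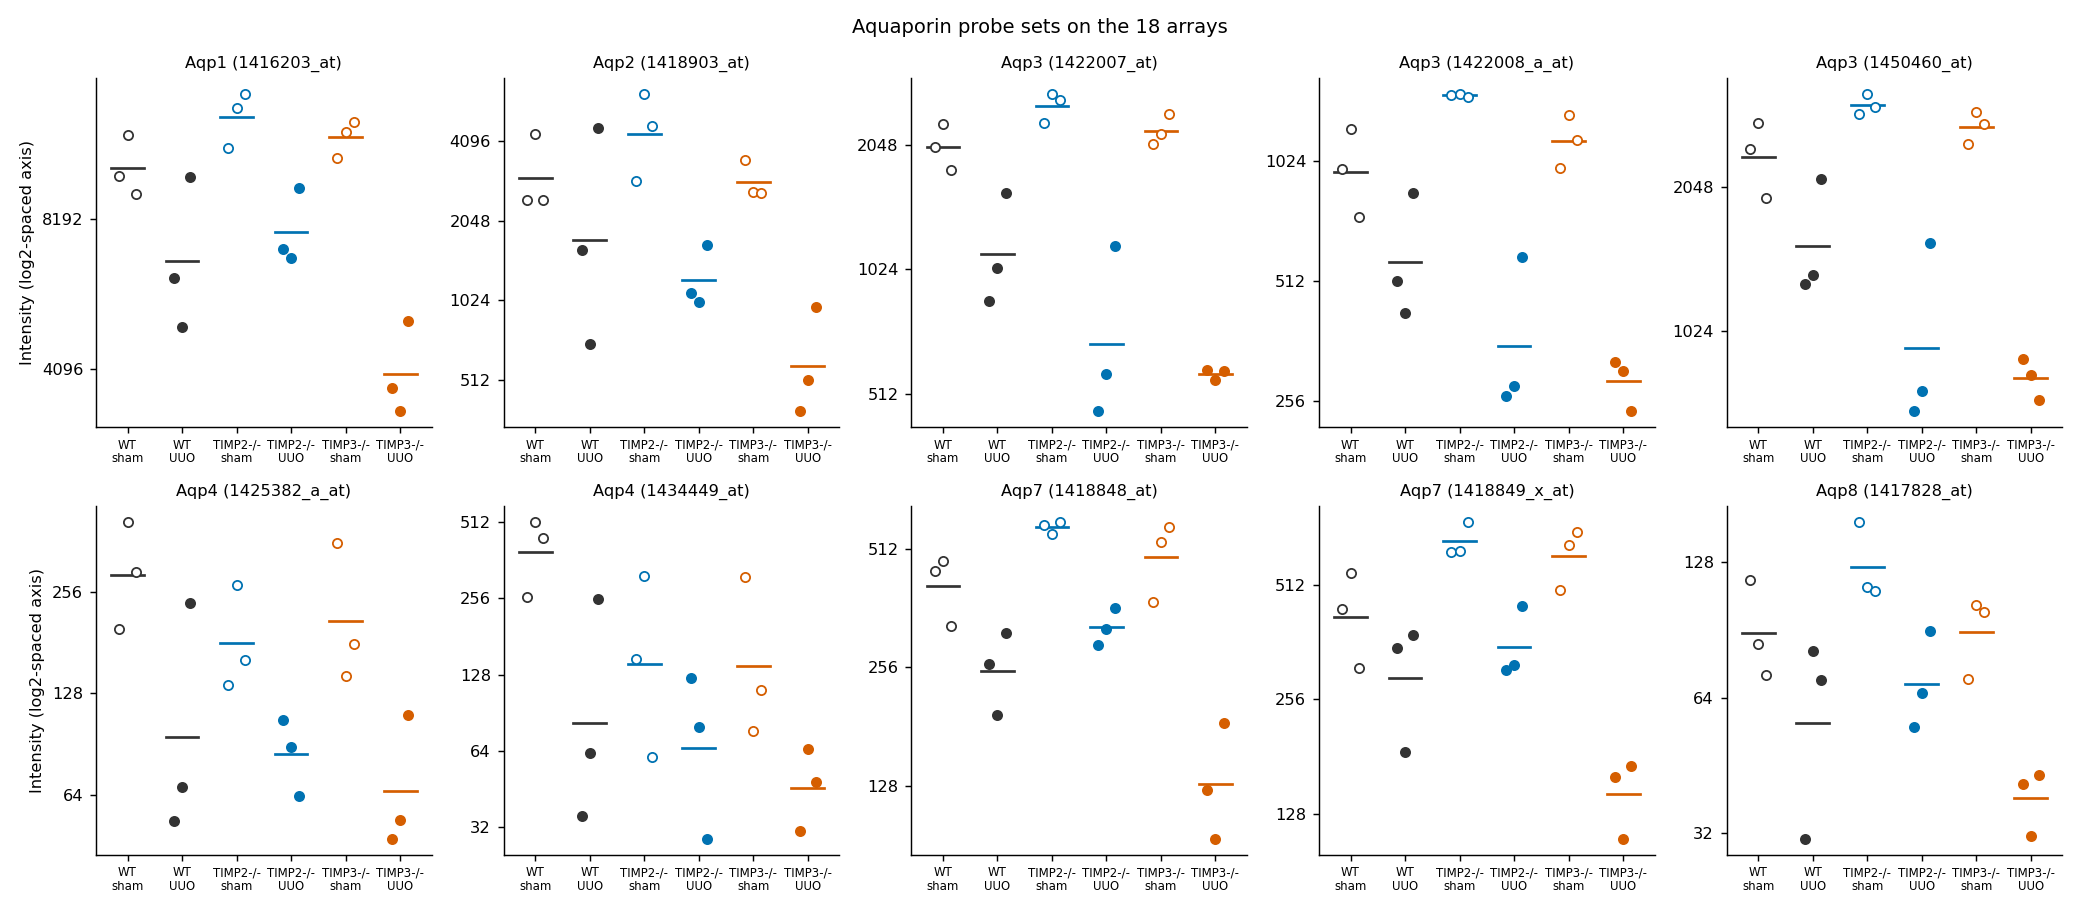
Intensity of each of the 10 aquaporin probe sets on the 18 arrays, on a log2-spaced vertical axis. Open points are sham arrays, filled points UUO arrays, and bars the mean of the 3 log2 values. In TIMP3-/- the UUO arrays lie below the sham arrays in all 10 panels, while in WT the groups overlap in 7.

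Aqp1 is the main water channel of the proximal tubule. Its intensity in WT was 10047, 12138 and 9209 after sham and 6232, 4973 and 9974 after UUO. TIMP2-/- mice had 11428, 13755 and 14661 after sham and 7127, 6837 and 9488 after UUO. TIMP3-/- mice had 10885, 12282 and 12911 after sham and 3734, 3362 and 5103 after UUO. The knockout groups were separate, and in WT the array WT UUO 3 lay among the sham arrays. Aqp1 differed by -0.62 ± 0.23 (SE) in WT (limma, adjusted p = 0.0496), or 65.0% of the sham level with a 95% interval of 46.5 to 90.9%. That call was lost without any 1 of the 5 WT arrays other than WT UUO 3 (adjusted p 0.0597 to 0.236), and without the 3 doubted arrays (0.189). The difference was -0.77 ± 0.23 in TIMP2-/- (adjusted p = 0.0177), lost without TIMP2-/- UUO 1 (0.0694), TIMP2-/- UUO 2 (0.0787), TIMP2-/- sham 2 (0.0512) or TIMP2-/- sham 3 (0.0675). In TIMP3-/- it was -1.58 ± 0.23 (adjusted p = 5.11e-05), which is 33.4% of sham (23.9 to 46.6%).

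Aqp7 is an aquaglyceroporin, which passes glycerol as well as water, and sits in the brush border of the straight proximal tubule. It is also made by adipocytes. Its brighter probe set (1418849_x_at, whose suffix marks probes that may also match other transcripts) read 444.1, 553.3 and 309.3 in WT sham and 351, 186.2 and 378.3 in WT UUO. In TIMP2-/- mice it read 628.3, 632.6 and 753.2 after sham and 306.7, 315.5 and 451.1 after UUO. In TIMP3-/- mice it read 497.5, 654.6 and 709 after sham and 160.2, 109.8 and 170.6 after UUO. Only the WT groups overlapped. The difference was -0.54 ± 0.28 in WT, which did not pass (limma, adjusted p = 0.148), -0.93 ± 0.28 in TIMP2-/- (0.019) and -2.09 ± 0.28 in TIMP3-/- (2.63e-05), where 23.5% of the sham level was left (15.6 to 35.3%). The other probe set (1418848_at) was lower in all 3 genotypes, with -0.72 ± 0.24 in WT (0.0344), -0.85 ± 0.24 in TIMP2-/- (0.0147) and -1.92 ± 0.24 in TIMP3-/- (1.67e-05). Both TIMP2-/- calls were lost without TIMP2-/- UUO 1 or TIMP2-/- UUO 2, that of 1418849_x_at also without TIMP2-/- sham 3 (highest adjusted p 0.0789). The WT call of 1418848_at was lost without WT UUO 1, WT UUO 2, WT sham 1 or WT sham 2 (highest 0.162).

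Adipocyte genes were counted because adipocytes also make Aqp7. Over all probe sets 14.7%, 14.1% and 25% were called higher in WT, TIMP2-/- and TIMP3-/- UUO, and 16.1%, 20.9% and 37.5% lower. Of the 8 adipocyte genes measured, 5 were higher in WT UUO, 1 in TIMP2-/- UUO and 5 in TIMP3-/- UUO, and none was lower. Their summed intensity was 1369 to 2839 on the sham arrays and 2841 to 19331 on the UUO arrays. Adipoq, the adiponectin gene, read 348.9 to 7461 on UUO arrays and 16.1 to 728.3 on sham arrays. The part of adipocytes in the Aqp7 signal was not tested. The number higher in WT was 2 or 3 without any 1 WT array but WT UUO 3 and 2 without the 3 doubted arrays, that in TIMP3-/- was 3 without TIMP3-/- UUO 1 or TIMP3-/- UUO 2, and that in TIMP2-/- was 0 without any 1 of its arrays but TIMP2-/- UUO 3. Fabp4, a fatty acid binding protein of adipocytes, was higher in all 3 genotypes (1.86, 1.86 and 3.13), Retn in WT and TIMP3-/- (1.54 and 1.25), and Lipe did not pass (-0.21 to 0.15).

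Aqp2 is the vasopressin-regulated channel of principal cells. It read 2447, 4353 and 2458 in WT sham and 1590, 699.9 and 4607 in WT UUO. It read 2885, 6169 and 4696 in TIMP2-/- sham and 1090, 1006 and 1660 in TIMP2-/- UUO. In TIMP3-/- mice it read 3487, 2633 and 2599 after sham and 389.4, 508.8 and 968.6 after UUO. WT UUO 3 had more than every WT sham array and the other WT UUO arrays less, so the WT groups overlapped. Aqp2 differed by -0.78 ± 0.52 in WT and did not pass (limma, adjusted p = 0.266), with a 95% interval from 26.9 to 126% of sham. Without WT UUO 3 it was -1.49 and passed (0.0172). It was lower by -1.84 ± 0.52 in TIMP2-/- (0.0151), 27.9% of sham (12.9 to 60.4%), and by -2.32 ± 0.52 in TIMP3-/- (0.00173), 20.0% of sham (9.27 to 43.3%). The TIMP2-/- call was lost without TIMP2-/- UUO 1 (0.0557), TIMP2-/- UUO 2 (0.0629) or TIMP2-/- sham 2 (0.0593).

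Aqp3 is the basolateral exit channel of the same cells and also passes glycerol. Its brightest probe set (1450460_at) read 2459, 2783 and 1944 in WT sham and 1287, 1345 and 2132 in WT UUO. In TIMP2-/- mice it read 2910, 3199 and 3013 after sham and 698.3, 770.4 and 1568 after UUO. In TIMP3-/- mice it read 2522, 2933 and 2771 after sham and 896.2, 831.9 and 736.7 after UUO. The knockout groups were far apart, and the TIMP3-/- UUO arrays lay close together. The difference was -0.62 ± 0.26 in WT, which did not pass (limma, adjusted p = 0.0785), -1.69 ± 0.26 in TIMP2-/- (0.00026) and -1.74 ± 0.26 in TIMP3-/- (6.17e-05). About 31.1% (21.3 to 45.3%) and 29.9% (20.5 to 43.6%) of the sham level were left in the knockouts. The probe set 1422007_at was lower in all 3 genotypes, by -0.86 ± 0.27 in WT (0.0242), -1.91 ± 0.27 in TIMP2-/- and -1.95 ± 0.27 in TIMP3-/-. Its arrays read 1779 to 2711 after sham and 466.1 to 1569 after UUO. The third, 1422008_a_at, stood at -0.76 ± 0.29 in WT (0.0625), -2.09 ± 0.29 in TIMP2-/- and 24.9% of sham (16.1 to 38.5%) in TIMP3-/-. All 6 knockout calls of Aqp3 held with each array left out in turn (highest adjusted p 0.00257), whereas the WT call of 1422007_at was lost without WT UUO 1, WT UUO 2, WT sham 1 or WT sham 2 (highest 0.109), and without the 3 doubted arrays (0.1).

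Aqp4 is the other basolateral channel of principal cells. Its probe set 1434449_at read 259.3, 510.5 and 441.3 in WT sham and 35.39, 62.62 and 253.5 in WT UUO. In TIMP2-/- mice it read 146.8, 313.7 and 60.66 after sham and 124.5, 79.69 and 28.89 after UUO. In TIMP3-/- mice it read 309.9, 76.96 and 111 after sham and 30.89, 65.12 and 48.28 after UUO. Arrays of 1 group lay far apart, with WT UUO 3 well above the other WT UUO arrays. On 5 arrays, WT UUO 1 (35.39) among them, this probe set lay below the 25th percentile of intensity on the array. That percentile was 56.8 to 64.2 over the arrays, and other low values were near it. The size of a change is inexact at such levels. The difference was -2.23 ± 0.75 in WT (limma, adjusted p = 0.0341), -1.09 ± 0.75 in TIMP2-/- (0.259) and -1.59 ± 0.75 in TIMP3-/- (0.0751). The probe set 1425382_a_at read 135.7 to 411.4 after sham and 47.59 to 236.5 after UUO. It gave -1.59 ± 0.51 in WT (0.027), -1.09 ± 0.51 in TIMP2-/- (0.104) and -1.67 ± 0.51 in TIMP3-/- (0.0108). Both WT calls were lost without WT UUO 1, WT UUO 2, WT sham 2 or WT sham 3 (adjusted p 0.0647 to 0.15), and without the 3 doubted arrays (0.187 for 1425382_a_at and 0.2 for 1434449_at).

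Aqp8 is a minor transcript of the kidney that is also made by hepatocytes. It read 116.7, 84.14 and 71.72 in WT sham and 31.14, 81.14 and 70.04 in WT UUO. Values were 156.7, 112.5 and 110.2 in TIMP2-/- sham and 55.16, 65.45 and 89.7 in TIMP2-/- UUO. In TIMP3-/- mice it read 70.23, 102.6 and 98.98 after sham and 41.24, 31.53 and 43.09 after UUO. These are dim values, and the TIMP3-/- UUO arrays lay below the 25th percentile. The difference was -0.66 ± 0.31 in WT (limma, adjusted p = 0.117), -0.86 ± 0.31 in TIMP2-/- (0.0433) and -1.22 ± 0.31 in TIMP3-/- (0.00385). The TIMP2-/- call was lost without any 1 of 5 of the 6 arrays, TIMP2-/- UUO 3 being the exception (adjusted p 0.0673 to 0.163). It was also lost with the replicate number of the labels as a block (limma, adjusted p = 0.0517), and same-numbered TIMP2-/- arrays deviated together (r = 0.36, 0.28 and 0.56). WT UUO 2, which had the high Alb, had the highest Aqp8 of the WT UUO arrays. The summed intensity of the 16 hepatocyte genes was 148272 there against 21133 to 39359 on the remaining WT UUO arrays and 36424 to 42478 in WT sham. In the knockouts that sum was lower after UUO, as Aqp8 was, with 46040 to 49083 after sham and 29546 to 35418 after UUO in TIMP2-/-, and 39655 to 43306 and 14995 to 16427 in TIMP3-/-. Alb itself read 470.9 to 507.4 in TIMP2-/- sham and 132.8, 933.2 and 198.1 in TIMP2-/- UUO. In TIMP3-/- mice Alb read 489.1 to 679.3 after sham and 53.96 to 89.22 after UUO. The sum thus did not follow Alb on TIMP2-/- UUO 2, where it was 29942. Which cells gave the sum was not tested. Over all probe sets 14.7%, 14.1% and 25% were called higher in WT, TIMP2-/- and TIMP3-/- UUO, and 16.1%, 20.9% and 37.5% lower. Of the 16 hepatocyte genes 4 were higher and 1 lower in WT UUO, 3 higher and 2 lower in TIMP2-/- UUO, and 1 higher and 3 lower in TIMP3-/- UUO. Without the 3 doubted arrays these counts were 2 and 3, 4 and 6, and 2 and 7. The number lower was 3 in WT without WT UUO 2 and 1 in TIMP2-/- without TIMP2-/- UUO 1. The part of hepatocyte RNA in the Aqp8 signal was not tested. Without the 3 doubted arrays, which include WT sham 3 as well as WT UUO 2, the WT difference of Aqp8 was -1.09 and passed (0.0494). With any 1 WT array left out, WT UUO 2 included, it did not pass (limma, lowest adjusted p 0.0567).

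**Figure D2:**
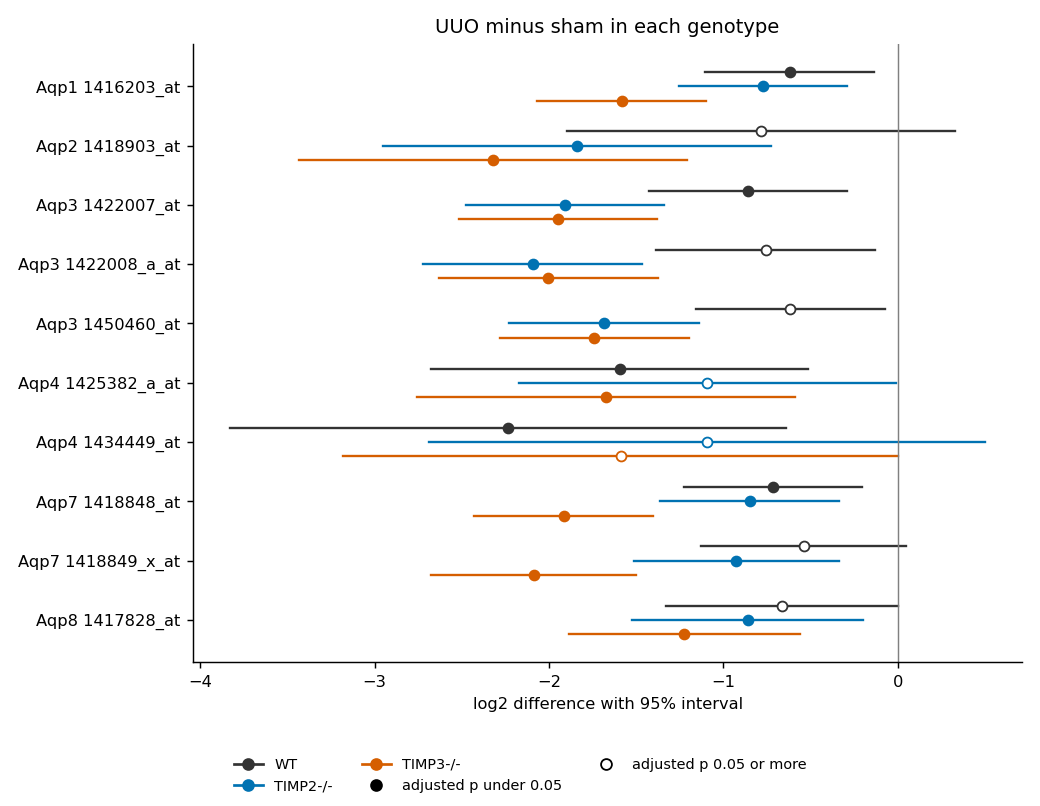
Log2 difference, UUO minus sham, of each aquaporin probe set (vertical axis) in WT, TIMP2-/- and TIMP3-/-, with the 95% interval of the fit. Filled points have an adjusted p under 0.05. All 30 points lie below 0, and the Aqp3 points of the knockouts lie between -2.09 and -1.69.

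The genes that carry the vasopressin signal to Aqp2 were called about as often as all probe sets, or less often. The list held the receptor, G protein, adenylyl cyclase, protein kinase A and the vesicle machinery. Of 22 genes measured, 3 were lower and 1 higher in WT UUO, 3 lower and 4 higher in TIMP2-/- UUO, and 5 lower and 6 higher in TIMP3-/- UUO. Over all probe sets 16.1%, 20.9% and 37.5% were lower and 14.7%, 14.1% and 25% higher, so these counts are no result about the pathway. Avpr2, the V2 receptor, read 941.1, 1085 and 677.3 in WT sham and 614.6, 227.8 and 1354 in WT UUO. It read 1003, 1311 and 1369 in TIMP2-/- sham and 695.3, 708.2 and 770.6 in TIMP2-/- UUO, and 984.7, 1023 and 939.1 in TIMP3-/- sham and 107.1, 159.2 and 439.7 in TIMP3-/- UUO. As for Aqp2, WT UUO 3 was the highest and WT UUO 2 the lowest WT array. Avpr2 was at -0.62 in WT (limma, adjusted p = 0.373), -0.75 in TIMP2-/- (0.26) and lower by -2.33 in TIMP3-/- (0.00151). Gnas, which encodes the stimulatory G protein, was at 0.14 to 0.20 and did not pass in any genotype (adjusted p 0.0944 to 0.203). The protein kinase A subunit gene Prkar1a (-0.14 to 0.22) and the chaperone gene Hspa8 (-0.02 to 0.10) did not pass either. Vamp8, a vesicle fusion protein, was lower in TIMP3-/- (-0.72, 0.00108) and at -0.06 and -0.25 in WT and TIMP2-/-. The count lower in WT was 1 without WT UUO 2 and 0 without the 3 doubted arrays, and the count higher was 3 without WT UUO 3. The count lower in TIMP2-/- was 4 without TIMP2-/- UUO 3 and 1 without any other TIMP2-/- array.

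Genes of signals that modify the vasopressin response, the prostaglandin E2 receptors among them, were listed apart. Not all of them oppose vasopressin, so a higher or lower count has no single direction. Of 11 genes measured, 4 were higher and 2 lower in WT UUO, 3 higher and 1 lower in TIMP2-/- UUO, and 6 higher and 3 lower in TIMP3-/- UUO. Over all probe sets 14.7%, 14.1% and 25% were higher and 16.1%, 20.9% and 37.5% lower. Ptger4, an EP4 receptor gene, was higher in all 3 (1.66, 1.98 and 2.37; limma, adjusted p 3.11e-06 to 0.00011). Ptger3, the EP3 receptor gene, was lower in all 3 (-0.95, -0.93 and -1.42). Rgs2, a brake on G protein signalling, was higher in all 3 (0.92, 0.80 and 1.85), and the receptor kinase gene Grk6 was higher in WT (0.61, 0.0183) and stood at 0.01 and 0.22 in the knockouts. Ptgs2, the inducible cyclooxygenase gene, read 13.2 to 17.9 on all sham arrays, and 25.95, 395.5 and 27.34 in WT UUO and 197.4, 201.5 and 25.47 in TIMP3-/- UUO, against 20.85, 21.54 and 16.28 in TIMP2-/- UUO. It passed in TIMP3-/- (2.73, 0.0118) and not in WT (2.10, 0.0709) or TIMP2-/- (0.23, 0.845). All its sham values lay below the 25th percentile of intensity on the arrays (56.8 to 64.2), where the size of a change is inexact. Without WT UUO 2 or the 3 doubted arrays the number higher in WT was 2. The number lower in WT was 1 without WT UUO 1, WT UUO 2, WT sham 1 or the 3 doubted arrays, and that in TIMP2-/- was 2 without TIMP2-/- UUO 3 or the 3 doubted arrays.

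Other genes of principal cells were called about as often as all probe sets. Of 17 measured, 2 were lower and 3 higher in WT UUO, 3 lower and 3 higher in TIMP2-/- UUO, and 5 lower and 4 higher in TIMP3-/- UUO, beside the shares of all probe sets given for the vasopressin genes. Their median differences were 0.14, -0.06 and 0.06. Scnn1b, a subunit of the sodium channel that shares the apical membrane with Aqp2, read 410.9 to 759.3 on the sham arrays and 280.1 to 720.2 on the UUO arrays and did not pass in any genotype (-0.48 to 0.14). Hsd11b2, which keeps glucocorticoids off the mineralocorticoid receptor, stood at 0.19, -0.06 and -0.22 and did not pass. Scnn1g was at 0.01 and 0.02 in WT and TIMP2-/- and lower in TIMP3-/- (-0.69; limma, adjusted p = 0.0463). Krt8, an epithelial keratin, was higher in all 3 (0.87 to 1.36). Fxyd4, a regulator of the sodium pump, was lower in TIMP3-/- (-1.27, 0.0117) and stood at -0.42 and -0.64 in WT and TIMP2-/-, and the transcription factor gene Tfcp2l1 did not pass (-0.26 to 0.58). The number lower in TIMP3-/- was 1 without TIMP3-/- UUO 1, 3 without TIMP3-/- UUO 2 or any TIMP3-/- sham array, and 6 without TIMP3-/- UUO 3. It was 1 in WT without any 1 WT array but WT UUO 3 and without the 3 doubted arrays, and 1 in TIMP2-/- without TIMP2-/- UUO 1 or TIMP2-/- UUO 2. The difference between Aqp2 or Aqp3 and the list was not tested.

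Urea transporters and osmolyte genes serve the medullary gradient that draws water through aquaporins. Of 11 measured, 2 were lower and 2 higher in WT UUO, 3 lower in TIMP2-/- UUO, and 5 lower and 2 higher in TIMP3-/- UUO. Over all probe sets 16.1%, 20.9% and 37.5% were lower and 14.7%, 14.1% and 25% higher, so these counts are no result about the list. The higher count in WT was 0 without WT UUO 3, WT sham 1, WT sham 3 or the 3 doubted arrays, and 1 without WT UUO 2. The lower count in WT was 3 without WT UUO 3 and 1 without WT UUO 1, WT UUO 2, WT sham 1, WT sham 2 or the 3 doubted arrays, and that in TIMP2-/- was 1 without TIMP2-/- UUO 1 or TIMP2-/- sham 3. Pnpla6, which breaks down the precursor of an osmolyte, was lower in all 3 genotypes (-0.52, -0.81 and -0.88), Slc6a6, the taurine transporter gene, in TIMP3-/- (-0.37), and the heat shock gene Hspa1b was higher in WT (1.15). Slc14a2, the urea transporter of the inner medullary collecting duct, did not pass in any genotype (-0.55, -0.59 and -0.72; limma, adjusted p 0.295 to 0.505). Nfat5, the tonicity-responsive transcription factor, was higher in TIMP3-/- (1.73, 0.0106), where TIMP3-/- UUO 2 read 893 and the other TIMP3-/- UUO arrays 231.6 and 218.2. The higher count there was 1 without TIMP3-/- UUO 2, TIMP3-/- sham 3 or the 3 doubted arrays.

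Most listed genes of the proximal tubule and many of the other nephron segments were lower after UUO. Beside every count in this paragraph stand the shares of all probe sets in WT, TIMP2-/- and TIMP3-/-. These were 16.1%, 20.9% and 37.5% lower and 14.7%, 14.1% and 25% higher. Of 18 proximal tubule genes 17 were lower in WT UUO, 16 in TIMP2-/- UUO and 18 in TIMP3-/- UUO, with medians of -1.61, -1.16 and -2.33. In TIMP2-/- the number was 9 without TIMP2-/- UUO 1 and 10 without TIMP2-/- UUO 2. Slc22a7, an organic anion transporter of the same tubule as Aqp1 and Aqp7, differed by -3.59, -2.67 and -6.54. Fbp1, a gluconeogenic enzyme, (-1.27, -0.96 and -2.33), Cyp4b1 (-1.38, -0.86 and -2.05) and Acsm2 (-1.36, -0.69 and -1.54) were lower in all 3, and Kap in WT and TIMP3-/- (-0.40 and -0.62). Of 11 thick limb and distal tubule genes 8, 6 and 9 were lower, and of 10 intercalated cell genes 5, 8 and 8, with 1 higher in TIMP3-/-. Egf, made in the thick limb and distal tubule, differed by -3.39, -3.09 and -5.80 and Slc12a3, the thiazide-sensitive cotransporter gene, by -1.37, -1.62 and -1.71. Cldn10 was lower in WT and TIMP3-/- (-0.90 and -1.48), and Umod did not pass (-0.12 to -0.39). The proton pump subunit gene Atp6v0a4 was lower in all 3 (-1.11, -0.99 and -1.91), Atp6v1b1 and the ammonia channel gene Rhcg in the knockouts, and Car2 did not pass. The WT thick limb and distal count was 5 without the 3 doubted arrays, the WT intercalated count 3 without WT UUO 2, and the TIMP2-/- intercalated count 5 without TIMP2-/- UUO 1. Among markers of other cells that make Aqp1, 3, 4 and 4 of 4 red cell genes were lower, with summed intensities of 1037 to 1694 after sham and 514 to 688 after UUO. Only 4 of the 8 listed red cell genes were measured. In TIMP2-/- sham 1 of them, and in each other group 2, lay below the 25th percentile on every array, where changes are inexact. Hba-a1, a haemoglobin gene, differed by -0.40, -0.44 and -0.61 and Alas2, of red cell haem synthesis, by -1.57, -2.54 and -2.82. In TIMP2-/- the count was 2 without TIMP2-/- UUO 1, TIMP2-/- UUO 2 or TIMP2-/- sham 2. Of 12 endothelial genes 6 were higher and 1 lower in WT UUO, 2 were lower in TIMP2-/- UUO, and 5 were higher and 2 lower in TIMP3-/- UUO. The endothelial sums were 9205 to 12863 after sham and 11194 to 15564 after UUO, and Emcn, an endothelial sialomucin gene, did not pass (-0.08 to -0.18). Without the 3 doubted arrays 3 were higher in WT and 3 in TIMP2-/-. The number higher in TIMP3-/- was 3 without TIMP3-/- UUO 1 or TIMP3-/- sham 1. The number lower in WT was 2 without WT UUO 3, and in TIMP2-/- it ran from 0 without TIMP2-/- UUO 1 to 3 without TIMP2-/- UUO 3. The part of red cells and endothelium in the Aqp1 signal was not tested. All 11 tubular injury genes and all 10 macrophage genes were higher in each genotype. Among genes of TNF and IL-1 signalling, 6, 5 and 7 of 11 were higher and 1 was lower in TIMP3-/-. That one was Tnf (-0.40; limma, adjusted p = 0.0122), and the number was 0 without TIMP3-/- UUO 2 or the 3 doubted arrays and 2 without TIMP3-/- UUO 1. Il1b was higher in TIMP3-/- (1.57, 0.00638) and did not pass in WT (1.13, 0.0606) or TIMP2-/- (0.80, 0.161).

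**Figure D3:**
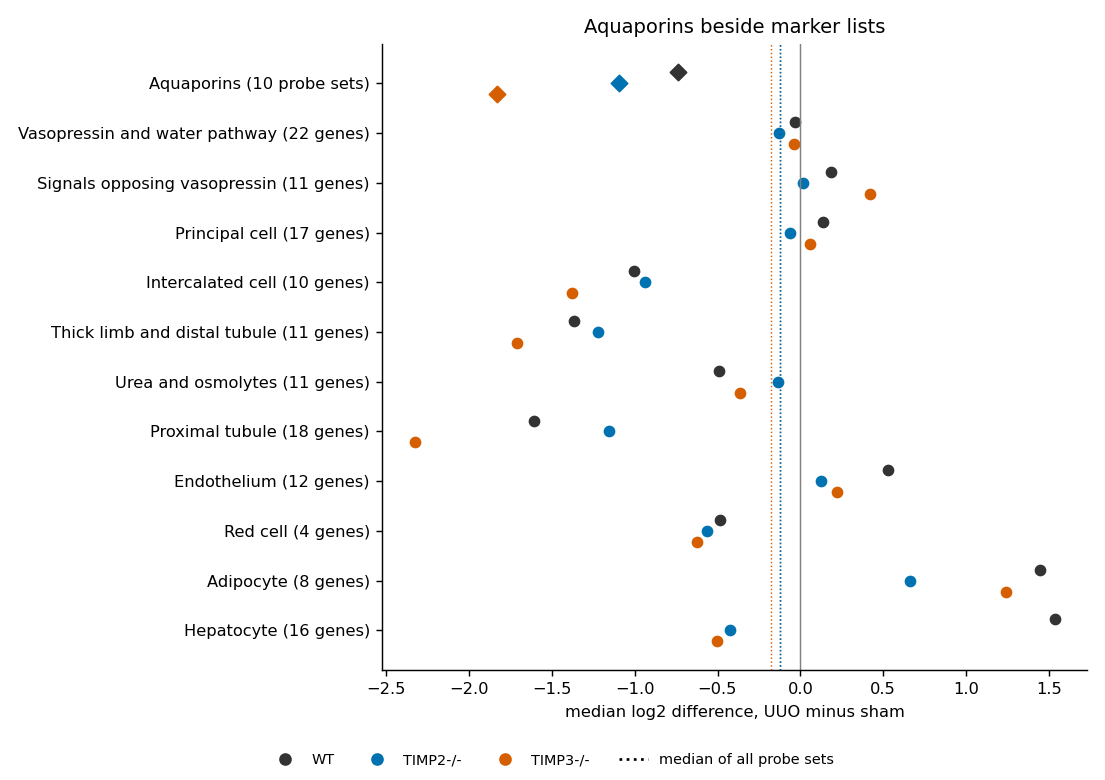
Median log2 difference, UUO minus sham, of the 10 aquaporin probe sets (diamonds) and of marker lists (circles, 1 probe set a gene) in the 3 genotypes. The row labelled as signals opposing vasopressin holds genes that modify its response, not all of which oppose it. Dotted lines are the medians of all probe sets. The aquaporin medians (-0.74, -1.09 and -1.83) lie below 0, as do the proximal tubule medians, and the principal cell medians lie between -0.06 and 0.14.

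Setting the obstructed kidneys of the genotypes side by side shows whether the level left after UUO depended on genotype. After UUO, all 10 probe sets had a lower mean in TIMP3-/- than in TIMP2-/- and than in WT. Against TIMP2-/- UUO, 3 of 10 were lower in TIMP3-/- UUO (4.65% of all probe sets were called lower and 2.4% higher), and 5 of 10 did not overlap (18.7%). They were Aqp1 (-0.95 ± 0.23; limma, adjusted p = 0.0275), 51.7% of the TIMP2-/- level, and both Aqp7 probe sets (-1.32 ± 0.24, 0.0109, and -1.29 ± 0.28, 0.0205), with intervals of 28.1 to 57.0% and 27.3 to 61.6%. Both are genes of the proximal tubule, and 14 of 18 proximal tubule genes were lower too. That number was 1 without TIMP2-/- UUO 3, 2 without TIMP3-/- UUO 1 or TIMP3-/- UUO 2, 6 without TIMP2-/- UUO 1 or TIMP2-/- UUO 2, and 16 without TIMP3-/- UUO 3. Aqp2 (-1.08 ± 0.52, 0.175) and Aqp8 (-0.84 ± 0.31, 0.0962) did not overlap and did not pass. The Aqp3 probe sets were at -0.21 to -0.29 with groups that overlapped (95% interval of 1450460_at from 59.5 to 126% of the TIMP2-/- level). The count of aquaporin probe sets was 0 without TIMP2-/- UUO 3 or TIMP3-/- UUO 2, 1 without TIMP3-/- UUO 1, and 2 without the 3 doubted arrays, where Aqp1 lost its call (0.0527).

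Against WT UUO no aquaporin probe set passed in TIMP3-/- UUO (0.168% of all probe sets were called lower and 0.539% higher), although 7 had an unadjusted p under 0.05 and 5 did not overlap (6.05%). The smallest adjusted p was 0.0768 (limma), that of Aqp7 1418848_at, whose difference was -0.96 ± 0.24. Aqp2 stood at -1.58 ± 0.52 (0.138), Aqp1 at -0.76 ± 0.23 (0.12) and the Aqp3 probe sets at -0.92 to -0.99 (0.1 to 0.119). Without WT UUO 2, 7 of the 10 passed, without TIMP3-/- UUO 3, 4 passed, and without the 3 doubted arrays, 3 passed, which were Aqp2 and both Aqp7 probe sets. Avpr2 was at -1.55 against WT (0.138) and lower by -1.89 against TIMP2-/- (0.041). The vasopressin list, which holds Avpr2, had 3 of 22 genes lower against TIMP2-/- (4.65% of all probe sets were). That count ran from 0 to 5 with single arrays left out and was 1 without the 3 doubted arrays. The Avpr2 call was thus lost without at least 1 of the arrays.

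TIMP2-/- UUO and WT UUO differed in no aquaporin that passed (0.0221% of all probe sets were called lower and 0.0265% higher), and 3 had an unadjusted p under 0.05. Those 3 were the Aqp3 probe sets, at -0.70 to -0.72 (limma, adjusted p = 1). The groups overlapped in all 10 probe sets (3.29% of all probe sets were lower and 5.33% higher without overlap). The other 7 lay between -0.50 and 0.37, and Aqp1, both Aqp7 probe sets and Aqp8 were above 0.

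**Figure D4:**
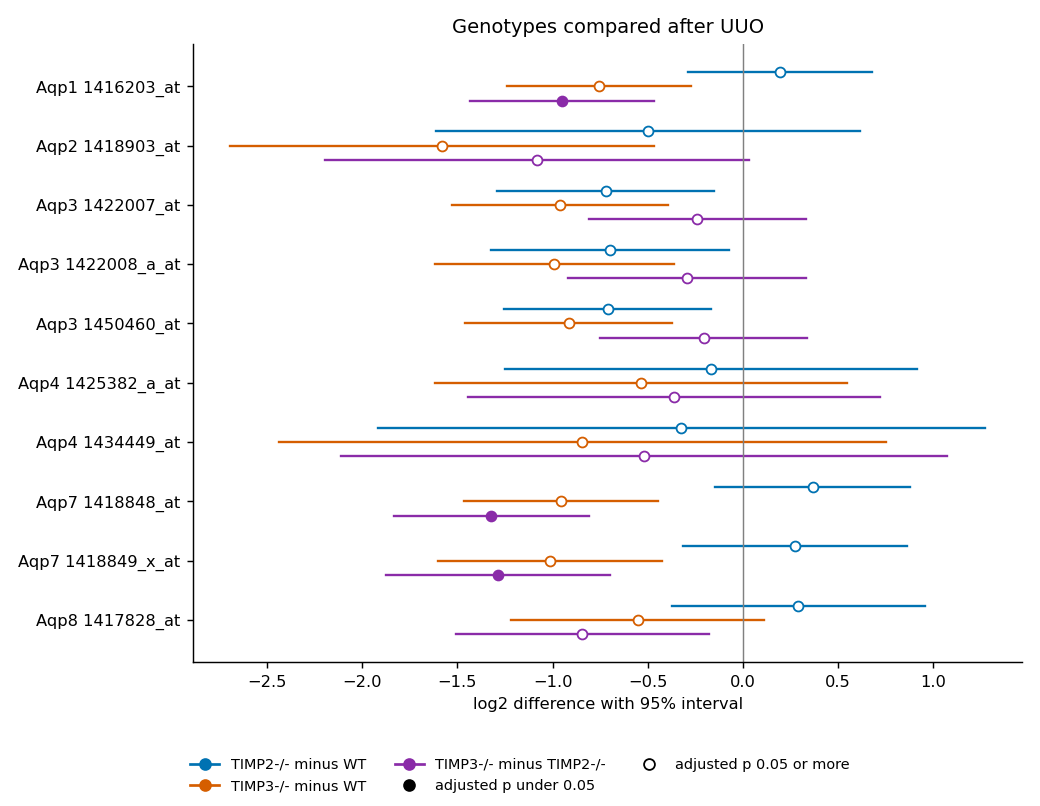
Log2 difference between genotypes after UUO for each aquaporin probe set (vertical axis), with the 95% interval of the fit. Filled points have an adjusted p under 0.05. The filled points are those of Aqp1 and Aqp7 in TIMP3-/- minus TIMP2-/-, at -0.95, -1.32 and -1.29.

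Whether the response to UUO itself differed between genotypes was tested with the difference of the differences. No aquaporin passed, nor did any of the 22626 probe sets (0% called, limma). Between TIMP3-/- and WT, 6 of 10 probe sets had an unadjusted p under 0.05, and the response in TIMP3-/- minus that in WT was -1.55 ± 0.39 for Aqp7 1418849_x_at, -0.96 ± 0.32 for Aqp1 and -1.12 ± 0.36 for Aqp3 1450460_at (adjusted p = 0.167 each). That of Aqp2 was -1.54 ± 0.74 (0.198). Between TIMP2-/- and WT the 3 Aqp3 probe sets (-1.05 to -1.33, adjusted p = 0.551) had an unadjusted p under 0.05. Between TIMP3-/- and TIMP2-/- the 3 were Aqp1 (-0.81 ± 0.32, 0.433) and the 2 Aqp7 probe sets (-1.07 ± 0.34, 0.362, and -1.16 ± 0.39, 0.368). These comparisons share the arrays of WT or of a knockout.

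After sham operation no aquaporin passed between genotypes, with or without the 3 doubted arrays. TIMP2-/- sham lay above WT sham without overlap in 5 of 10 probe sets (26.3% of all probe sets did), while 0% were called lower and 0.0221% higher. They included 1422008_a_at of Aqp3 (0.64; limma, adjusted p = 0.19), which read 1508, 1510 and 1485 in TIMP2-/- and 982.3, 1237 and 741.4 in WT, and both Aqp7 probe sets (0.50 and 0.66; 0.199 and 0.166). At an unadjusted p under 0.05 there were 2. TIMP3-/- sham and WT sham differed by -1.49 to 0.53 with none passing (0.0177% of all probe sets were called lower, 0.0265% higher) and 0 at an unadjusted p under 0.05. TIMP3-/- sham and TIMP2-/- sham differed by -0.60 to 0.22, with 0 again at both thresholds (0.0354% and 0.0398% of all called) and 2 of 10 lower without overlap (6.46%).

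The probe sets most like each aquaporin over the 18 arrays were found by Pearson's r of the log2 values, 1 probe set a gene. All points share the fall from sham to UUO, so r is given also for the deviations of arrays from their group means, as a description with no test. For Aqp1 they were Cox4i1, a subunit of cytochrome c oxidase (r = 0.99, deviations 0.96), Sigirr (0.99, 0.95) and Ndufv1, a subunit of complex I (0.99, 0.95). Aqp7 was likest to Stard5 (0.99, 0.92), Atad3a (0.98, 0.92) and the complex I gene Ndufs8 (0.98, 0.92). For Aqp2 they were Bsnd, the barttin subunit of kidney chloride channels (0.97, 0.90), Gal3st1 (0.96, 0.90) and Nfyc (0.95, 0.85). Aqp3 was likest to Fa2h (0.97, 0.93), Bcar3 (0.97, 0.91) and Acacb (0.96, 0.84). Aqp4 was likest to Igfbp5 (0.94, 0.93) and Aqp8 to 2810459M11Rik (0.93, 0.81). Among the members themselves, Aqp1 and Aqp2 had r = 0.94 and a deviation r of 0.89. Aqp2 and 1450460_at of Aqp3, which share the principal cell, had r = 0.86 and a deviation r of 0.51.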

How the data were processed

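The study measured total RNA of the kidney on the operated side with Mouse430A_2 arrays. The authors deposited 1 linear intensity per probe set and array, made with RMA per the submitters' processing notes. Its version and the step to linear values are not given in the sources used here. The method sets the arrays' distributions nearly equal, so a shift of all transcripts cannot be seen, and the number of arrays, 3 a group, limits the precision. Array medians were 201 to 214 on the sham arrays and 215 to 247 on the UUO arrays, so a difference in distribution went with the operation.

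Here intensities were turned into log2 with no offset, 64 control probe sets were left out, and a model of 6 group means was fitted to 22626 probe sets with limma 3.58.1 in R 4.3.3. It has 12 residual degrees of freedom, and its median residual SD is 0.219. P-values were adjusted within each of 12 comparisons. An exact permutation test of 3 against 3 arrays cannot give a p below 0.1 and was not used. On simulated data the fit of WT UUO against WT sham recovered 92% of probe sets changed by 2 and 71% of those changed by 1 on the log2 scale. Only 200 of the 22626 probe sets were changed there, and the noise was independent between probe sets, unlike the data. The recovery checks the fit and does not give the power for the aquaporins. Replicates are those of the labels, and p-values measure the spread between these samples.

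The probe set with the highest mean stood for a gene in lists. Named were all aquaporin probe sets, the 4 brightest genes of each list plus genes set by name (Avpr2, Slc14a2, Scnn1b, Scnn1g, Nfat5, Slc22a7, Alb, Adipoq, Tnf, Il1b, Ptgs2), the 3 likest genes, Timp2 and Timp3. Members and lists were chosen with earlier results of these data known. The labels give no source for a pairing by replicate number. Deviations of same-numbered arrays correlated at r -0.58 to 0.61, over 0.1 in 14 of 27 pairs. All 3 pairs were over 0.1 for TIMP2-/- UUO with TIMP2-/- sham (0.36, 0.28 and 0.56) and with WT UUO (0.18, 0.30 and 0.48), so the blocked value is given there where it changes a call. Alternatives were probe set summaries, a filter on dim probe sets, an offset of 16, centring, quantile normalization, eBayes settings, the arrays fitted, a replicate block and leaving arrays out.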

Additional observations from a re-analysis of the deposited data

Results flagged for a closer look

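Aqp9, a water and glycerol channel of hepatocytes outside the list of kidney aquaporins, was seen on 1 obstructed array. Its probe set 1424011_at read 325.5 on WT UUO 2, where the highest of the 9 sham arrays read 69.8. The other probe set, 1421605_a_at, read 98.55 on that array against at most 46.9 on the sham arrays. The other UUO arrays read 43.38 to 72.15 and 27.99 to 39.2. The same array had the Alb intensity of 28106.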

How the results depend on the processing

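All 30 differences between UUO and sham kept their direction under every alternative run. Of 1152 recomputed values of 71 probe set differences, 1148 kept their sign. The other 4 were not called: the 3 Aqp3 differences between TIMP3-/- and TIMP2-/- after UUO, which ran from -0.51 to 0.15, -0.50 to 0.080 and -0.42 to 0.16 with single arrays left out, and Aqp4 1425382_a_at between TIMP3-/- and WT after UUO (-0.95 to 0.12). With 1 probe set a gene, 2 of 6 genes passed in WT with the brightest, where those of Aqp3 and Aqp7 did not, and 3 with the mean, against 4 genes with any probe set. In TIMP2-/- 5 genes passed each way. Fitting the compared arrays alone left 1 in WT and 0 between TIMP3-/- and TIMP2-/- after UUO. The same fit gained calls for Aqp4 1425382_a_at in TIMP2-/- (limma, adjusted p = 0.0231) and Aqp4 1434449_at in TIMP3-/- (0.0412). Without the 3 doubted arrays 2 passed in WT and 3 between TIMP3-/- and WT after UUO. The cause was not tested. With single arrays left out, the number passing was 0 to 8 in WT, 3 to 8 in TIMP2-/-, 9 to 9 in TIMP3-/-, 0 to 7 between TIMP3-/- and WT after UUO, 0 to 3 between TIMP3-/- and TIMP2-/- after UUO, 0 to 1 for the response in TIMP3-/- minus TIMP2-/-, and 0 in the other 6 comparisons. With the replicate block, Aqp8 in TIMP2-/- lost its call (adjusted p = 0.0517) and no other aquaporin call changed. Centring moved the median of all probe sets in UUO minus sham to -0.25, -0.27 and -0.41, and quantile normalization to -0.09, -0.09 and -0.14. With centring, Aqp3 1422008_a_at and 1450460_at passed in WT (limma, adjusted p = 0.0391 and 0.0457). Aqp4 1434449_at then passed in TIMP3-/- (0.0357). With quantile normalization, Aqp1 in WT lost its call (0.0694), as it did with the offset (0.0501). Signal over background limits Aqp4 and Aqp8.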

Other observations

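The other aquaporins measured were Aqp5, Aqp9 and Mip. Aqp5, a channel of secretory glands, read 82.67 to 156.3 on the sham arrays and 55.59 to 108.8 on the UUO arrays. It stood at -0.20 in WT (limma, adjusted p = 0.555), -0.63 in TIMP2-/- (0.0526) and -0.54 in TIMP3-/- (0.0601), and did not pass. Mip, the lens aquaporin, had a probe set (1421039_at) that read 26.78 to 56.9 on all arrays, below the 25th percentile of intensity. It was lower in TIMP2-/- (-0.42, 0.0437) and TIMP3-/- (-0.51, 0.0102), with changes whose size is inexact at that level. The other Mip probe set, 1435447_at, was dimmer, at 11.18 to 17.58. That one was lower in TIMP3-/- (-0.31, 0.0285) and did not pass in TIMP2-/- (-0.15, 0.305). Of these 3 genes 1 was lower in TIMP2-/- and 1 in TIMP3-/-, beside 20.9% and 37.5% of all probe sets. The TIMP2-/- number was 2 with the replicate block or without TIMP2-/- sham 1, and 0 without TIMP2-/- UUO 1, TIMP2-/- UUO 2, TIMP2-/- sham 2 or TIMP2-/- sham 3. The TIMP3-/- number was 0 without TIMP3-/- sham 3.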
